A study of Homo sapiens with 6 samples.

Results

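J-domain proteins are the co-chaperones that deliver unfolded proteins to HSP70 and start its ATPase cycle, and the genes described here are those whose proteins act outside the lumen of the endoplasmic reticulum (ER). Members were the genes of the authors' deposited table named DNAJA, DNAJB or DNAJC with a number and nothing after it, without the ER-lumen proteins DNAJB9, DNAJB11, DNAJC1, DNAJC3 and DNAJC10. The rule gave 38 members of 26364 genes. Sequencing libraries were made from total RNA of REH, an established line grown from a human B-cell precursor leukaemia. The cells had 6 h with 50 µM S3I-201, a compound made to inhibit STAT3, or 6 h with its solvent DMSO alone. There were 3 S3I-201 libraries and 3 DMSO libraries, and per the labels they come from independent experiments. The comparison asks which transcripts differ when STAT3 is targeted with the compound.

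The authors' deposited table pools the 6 libraries, giving for each gene its mean normalized count, the log2 fold change with p-value, and the adjusted p, so no value per library is shown here. A positive fold change was taken to mean a higher level in S3I-201 than in DMSO. The table does not state this, and under the opposite reading every direction below would turn. Fold changes appear shrunken towards 0, so that those of weakly expressed genes are understated. Dividing the size of the log2 fold change by the normal quantile that matches its p-value gave the implied SE, and the 95% intervals below are built from it. The threshold for a call was an adjusted p of 0.05. Steps in the means of rarely detected genes put the smallest library at about 6560000 counts and the largest at about 14500000. The B-precursor label was checked against 8 markers in the authors' deposited table, of which 7 were detected, with means from 2975 for CD22 to 13622 for DNTT, and VPREB1 was listed at 0. The 6 of them with an adjusted p all had negative log2 fold changes, with a median of -0.20, and 0 passed by the authors' DESeq2 adjusted p, while DNTT at -0.31 and RAG1 at -0.29 had an unadjusted p under 0.05. Their part in the results below was not tested. Markers of T cells and erythroid cells were listed at 0, CD14 and LYZ had means of 6.93 and 2.17, and the myeloid gene MPO stood at 978 with a log2 fold change of -0.16 (adjusted p = 0.677) in the authors' deposited table.

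J-domain proteins carry a short helical domain, in most of them with a conserved histidine-proline-aspartate motif that makes HSP70 hydrolyse ATP and close on its client. Class A and class B proteins also bind clients themselves, while class C proteins share only the J domain and mostly serve a single place or task, such as the mitochondrial import motor, clathrin-coated vesicles or the spliceosome. In the cytosol, DNAJB1 and some class A proteins are induced by heat through HSF1, and several J proteins of the ER lumen are induced by the unfolded protein response. DNAJC16 and DNAJC25, kept by the rule, are counted by others among ER-resident J proteins too, a matter of protein location on which transcript values are silent.

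DNAJB4 and DNAJB1, which encode class B co-chaperones of cytosolic HSP70, rose with S3I-201, and no other member passed the threshold. DNAJB4 had a log2 fold change of 1.87 (implied SE 0.20, DESeq2 adjusted p = 2.68e-18), or 3.66-fold, and DNAJB1 one of 0.49 (implied SE 0.16, DESeq2 adjusted p = 0.0328), or 1.40-fold, in the authors' deposited table. By the authors' DESeq2 adjusted p, 0 members were lower, and 0 of those with a negative value had an unadjusted p under 0.05. Of the 38 members, 31 had an adjusted p, 4 had a mean under the abundance filter of 10.0 and 3 were listed at 0. The 2 called members are 6.45% of the 31 tested, against a background of 5.90% called among the 11912 genes tested, of which 4.45% were higher and 1.45% lower. The share of called members was thus near that of all genes. With the threshold moved to 0.01 and 0.1, 1 and 3 members were higher, where 3.05% and 5.27% of all tested genes were. With a log2 fold change of at least 0.5 asked for as well as an adjusted p under 0.05, 1 member was higher, beside 4.17% of all tested genes. Both fold changes come from a table that was seen before the members were chosen, and the p-values measure only the spread between these libraries. In bulk RNA, a change in part of the cells and a smaller one in all of them cannot be told apart.

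The upstream sequences of the 2 called genes are shown because heat shock factor binding sites are the textbook element of inducible cytosolic J proteins. Capitals mark the heat shock element pairs GAANNTTC and TTCNNGAA, each of which reads the same on both strands. The windows reach up to 250 bases upstream of a RefSeq start (GRCh38.p14), printed 5′ to 3′ on the gene's strand and ended where an annotated exon begins. For DNAJB1 as for DNAJB4, the printed stretch lies upstream of a start inside the annotated gene, not at its outer end.
DNAJB1, chr19:14518421-14518647, minus strand: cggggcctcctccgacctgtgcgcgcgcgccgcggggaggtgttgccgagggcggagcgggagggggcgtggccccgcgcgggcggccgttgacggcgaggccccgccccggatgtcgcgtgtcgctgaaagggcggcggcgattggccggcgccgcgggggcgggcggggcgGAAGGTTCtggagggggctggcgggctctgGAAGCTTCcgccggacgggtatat
DNAJB4, chr1:78004689-78004853, plus strand, upstream of an internal start: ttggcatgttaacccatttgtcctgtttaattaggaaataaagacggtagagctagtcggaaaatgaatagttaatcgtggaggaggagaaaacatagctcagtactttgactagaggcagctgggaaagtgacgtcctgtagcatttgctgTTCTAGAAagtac

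The DNAJB1 window held 2 pairs, which begin 77 and 47 bases before the start, and the DNAJB4 window held 1, which begins 98 bases before it. Of the other RefSeq starts, 2 for DNAJB1 and 1 for DNAJB4, none had a pair in its 250 bases, and the deposited values do not show which start was used. Over all members with a RefSeq window, 7 of 35 had a pair of either kind upstream of at least 1 start, against 14.0% of 27305 genes. Besides DNAJB1 and DNAJB4 these were DNAJA1, DNAJA4, DNAJB6, DNAJB7 and DNAJC15, whose values are given below and did not pass or were not tested. The CHOP and ATF4 composite TGATGNAA, searched on both strands, was found for 1 member, DNAJA4 (2.86% against 3.89% of all genes). The antioxidant element TGACNNNGC, also on both strands, was found for 3, DNAJA2, DNAJB6 and DNAJC11 (8.57% against 13.2%). The ER stress element, CCAAT and CCACG at their usual spacing on either strand, was found for 0 members and for 0.0916% of all genes. It was also found for 0 of the 4 ER-lumen J proteins with a window, so its absence does not set the members apart. A match describes letters in a window and is no measure of binding.

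Of the 8 class B genes of the cytosol and nucleus, 5 were tested, with 2 called and 3 not past. Over all tested genes 5.90% were called, and the 2 are the only calls among all members. All 5 log2 fold changes were positive, and their median was 0.48 against -0.02 over all tested genes, of which 46.4% were positive. Of these 5, 4 had an unadjusted p under 0.05, where 16.0% of all tested genes did. DNAJB4 is a stress-inducible co-chaperone of HSP70, also known as HLJ1. Its mean normalized count over the 6 libraries was 403 in the authors' deposited table, which with the fold change implies about 632 with S3I-201 and 173 with DMSO. Such implied levels lie too close together where the fold change is shrunken. Its 95% interval ran from 2.80-fold to 4.80-fold, and 99.8% of tested genes had a smaller change in size. DNAJB4 lies on chromosome 1 from 77979175 to 78017964 (hg38, GENCODE 29, plus strand, whole gene) and shares 78 of its 3783 exon bases with GIPC2 on the same strand, which had a mean of 0.881 in the authors' deposited table. Only 0.756% of the 50-base words of its transcripts occur in transcripts of other genes.

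DNAJB1 is the founding human HSP40, the class B protein that cells make in response to heat. Its mean normalized count was 2086 in the authors' deposited table, which implies about 2436 with S3I-201 and 1737 with DMSO. The 95% interval reached from 1.14-fold to 1.73-fold and did not overlap that of DNAJB4. DNAJB1 lies on chromosome 19 from 14514770 to 14529770 (hg38, minus strand, whole gene). The libraries carry no strand, and 211 of the 3672 exon bases of DNAJB1 (5.75%) are also exon of TECR on the other strand, which had a log2 fold change of -0.07 (adjusted p = 0.901) in the authors' deposited table. Per kb of exon the implied difference between S3I-201 and DMSO was 190 normalized counts for DNAJB1 and 122 for DNAJB4. At the ends of the fold intervals it was 71.9 to 305 for DNAJB1 and 101 to 139 for DNAJB4, and these ranges overlap. The ranges hold the pooled mean and the exon length fixed, so they are not 95% intervals of the difference.

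DNAJB2, DNAJB6 and DNAJB5 were not past the threshold. DNAJB2, which passes ubiquitylated clients to the proteasome, had a log2 fold change of 0.48 (implied SE 0.17, DESeq2 adjusted p = 0.0678) in the authors' deposited table, nearly the size of that of DNAJB1. Its mean of 462 implies about 539 with S3I-201 and 386 with DMSO. DNAJB6, which keeps polyglutamine proteins from aggregating, had 0.35 (implied SE 0.17, DESeq2 adjusted p = 0.255) at a mean of 1205 in the authors' deposited table, with about 1351 implied for S3I-201 and 1059 for DMSO. DNAJB5, a close relative of DNAJB1 and DNAJB4, had 0.25 (implied SE 0.21, DESeq2 adjusted p = 0.659) at a mean of 110 in the authors' deposited table. DNAJB13, a protein of sperm tails and cilia, had 10 reads over the 6 libraries, 5 among the libraries on each side of the fold change. DNAJB7 and DNAJB8, known from testis, and DNAJB3, which GENCODE lists as a pseudogene, were listed at 0. A count of 0 over all libraries allows up to 3 counts, or a mean normalized count of 0.5, by counting error alone.

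**Figure D1:**
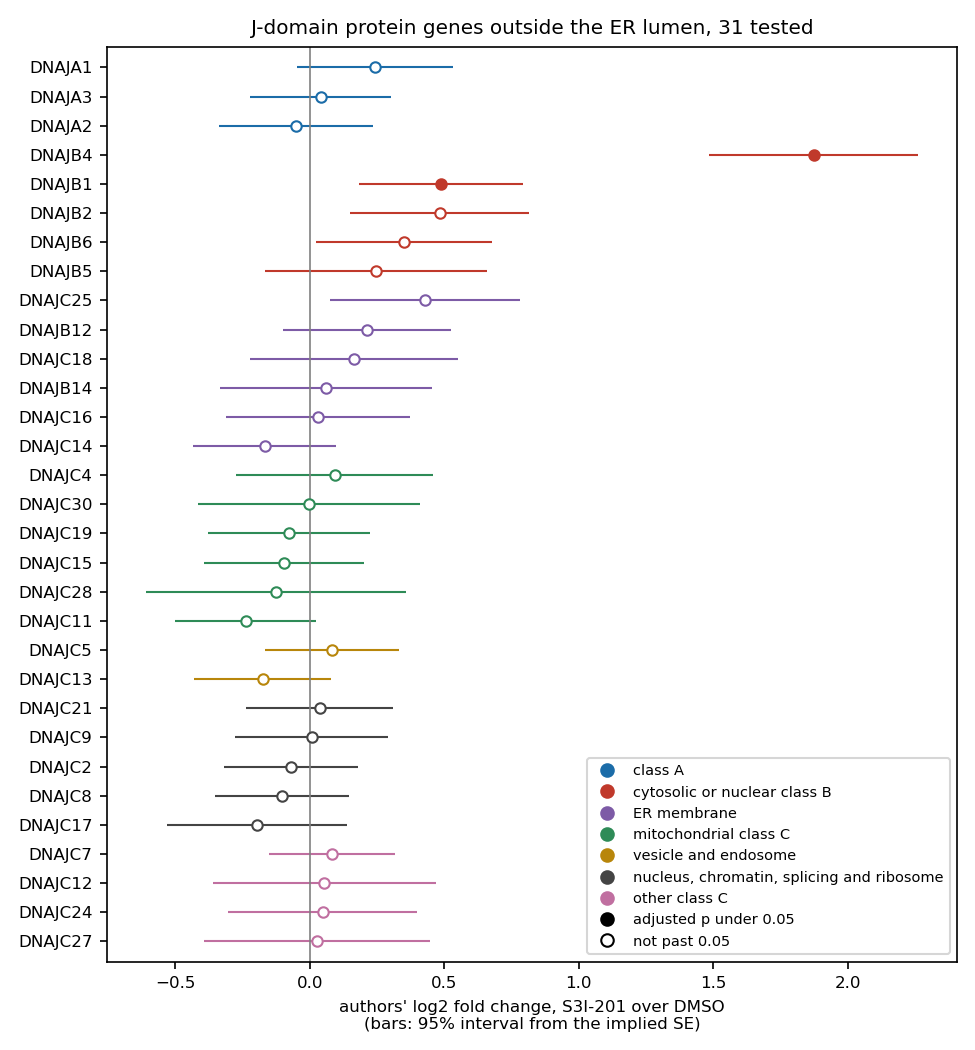
Log2 fold change (S3I-201 over DMSO, horizontal axis) of the 31 tested members, grouped by role and ordered by value within each group, with 95% intervals from the implied SE. Filled points passed an adjusted p of 0.05: DNAJB4 at 1.87 stands apart from all other members, and DNAJB1 at 0.49 lies next to DNAJB2 at 0.48, which did not pass.

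Class A members, which carry a zinc-binding region beside the J domain, did not pass in any of 3 tested cases. Over all tested genes 5.90% were called. DNAJA1, a farnesylated partner of cytosolic HSP70 and a heat-inducible gene, had a log2 fold change of 0.24 (implied SE 0.15, DESeq2 adjusted p = 0.459) in the authors' deposited table. It was the most abundant member, with a mean of 4778 that implies about 5181 with S3I-201 and 4376 with DMSO. Its 95% interval, 0.968-fold to 1.45-fold, includes no change and the size of the change of DNAJB1. DNAJA2, its constitutive relative, stood at -0.05 (adjusted p = 0.931) and DNAJA3, the mitochondrial class A protein, at 0.04 (adjusted p = 0.943), as the authors' deposited table gives it. DNAJA4 had a mean of only 7.19 and a log2 fold change of 0.33 there, with a p-value of 0.164 and no adjusted p.

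The 6 members placed in the ER membrane were all tested, and 5 had positive values, where 46.4% of all tested genes were positive. None passed by the authors' DESeq2 adjusted p, beside 5.90% of all tested genes called. Where 16.0% of all tested genes had an unadjusted p under 0.05, 1 of these members did. That member was DNAJC25, with a log2 fold change of 0.43 (implied SE 0.18, DESeq2 adjusted p = 0.168) in the authors' deposited table. Its mean of 161 implies about 185 with S3I-201 and 137 with DMSO. DNAJC25 shares 358 of its 2586 exon bases (13.8%) with a read-through transcript into GNG10, which was listed at 0, so that the counting may have divided or dropped reads there. DNAJB12 and DNAJB14 face the cytosol from the ER membrane and take part in the disposal of misfolded membrane proteins. They had log2 fold changes of 0.21 (adjusted p = 0.580) and 0.06 (adjusted p = 0.944) in the authors' deposited table. DNAJC18, of the same kind, had 0.17 (adjusted p = 0.783), DNAJC16, which acts in autophagosome growth, 0.03 (adjusted p = 0.962) and DNAJC14, an export factor of membrane receptors, -0.17 (adjusted p = 0.630) in the authors' deposited table. DNAJC14 shares 53.1% of its 50-base words with other genes, including ORMDL2 and TMEM198B on the other strand, and its value is uncertain. Over 10% of such words were shared for 6 tested members, the others being DNAJC9, DNAJC11, DNAJC17, DNAJC25 and DNAJC30.

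The 6 mitochondrial class C members were all tested, with 1 positive and 5 negative values, where 46.4% of all tested genes were positive. By the authors' DESeq2 adjusted p 0 passed, beside 5.90% of all tested genes called. An unadjusted p under 0.05 was held by 0 of the 6, where 16.0% of all tested genes had one. The median was -0.09. DNAJC11, a cristae and outer membrane protein, had the most negative value of all members, -0.24 (implied SE 0.13, DESeq2 adjusted p = 0.393), at a mean of 1838 in the authors' deposited table. THAP3 overlaps 27.9% of its exon length on the other strand. DNAJC15, a brake on complex I, had -0.10 (adjusted p = 0.852) and DNAJC19, a part of the import motor, -0.08 (adjusted p = 0.896) in the authors' deposited table. DNAJC4 stood at 0.09 (adjusted p = 0.895) and DNAJC30, which acts on complex I, at -0.0015 (adjusted p = 0.999), as the authors' deposited table gives it. DNAJC28 was the least abundant tested member, with a mean of 10.8 and a log2 fold change of -0.13 (implied SE 0.25, DESeq2 adjusted p = 0.890) in the authors' deposited table. Its 95% interval, 0.656-fold to 1.28-fold, was wider than that of any other tested member on the log2 scale.

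Members that act in the nucleus and on ribosomes had values from -0.20 to 0.04, of which 3 were smaller than 0.1 in size. Changes that small were held by 34.0% of all tested genes. Of 5 tested, by the authors' DESeq2 adjusted p 0 passed and 0 had an unadjusted p under 0.05. Over all tested genes the shares were 5.90% and 16.0%. DNAJC8, a splicing-associated protein, had -0.10 (adjusted p = 0.791) at a mean of 2790 and DNAJC17, also linked to splicing, -0.20 (adjusted p = 0.664) at 176 in the authors' deposited table. DNAJC2, which sits on the ribosome with HSP70 and also acts on chromatin, had -0.07 (adjusted p = 0.878) and DNAJC21, a factor of large ribosomal subunit maturation, 0.04 (adjusted p = 0.948) in the authors' deposited table. DNAJC9, a co-chaperone of histones, stood at 0.0066 in the authors' deposited table (adjusted p = 0.991), with FAM149B1 over 24.0% of its exon length on the other strand. Its 95% interval ran from 0.824-fold to 1.22-fold.

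Vesicle proteins were few. DNAJC5, the cysteine string protein of secretory vesicles, had 0.08 (adjusted p = 0.846) and DNAJC13, an endosome protein, -0.18 (adjusted p = 0.575) in the authors' deposited table. DNAJC6, the neuronal auxilin that uncoats clathrin vesicles, had 8 reads in all, from 3 libraries, with 7 of the reads on the positive side of the fold change and 1 on the negative. Of all tested genes, 34.0% had changes smaller than 0.1 in size. Among the other class C members, the 4 tested genes all did, with values from 0.03 to 0.08. These were DNAJC7, which links HSP70 with HSP90, at 0.08 (adjusted p = 0.828), DNAJC12, a co-chaperone of aromatic amino acid hydroxylases, at 0.05 (adjusted p = 0.950), DNAJC24, a diphthamide synthesis factor, at 0.05 (adjusted p = 0.947), and DNAJC27, a small GTPase with a J domain, at 0.03 (adjusted p = 0.972), as the authors' deposited table gives it. DNAJC22 had 6 reads, 1 on the positive and 5 on the negative side. Over class C as a whole, 21 of 23 members were tested, 11 had positive and 10 negative values, and the median was 0.0066. Over all tested genes 46.4% were positive, with a median of -0.02.

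The intervals of the 29 members that did not pass are those of fold changes that appear shrunken, so they do not bound the unshrunken change, least of all for weakly expressed members such as DNAJC28. For 24 of them the 95% interval lay within 1.5-fold in both directions, for 4 it reached 1.5-fold higher and for 1 it reached 1.5-fold lower. The 4 were DNAJB2, DNAJB5, DNAJB6 and DNAJC25, and the 1 was DNAJC28. Intervals that excluded 0 belonged to 3 of the 29, namely DNAJB2, DNAJB6 and DNAJC25. The median log2 fold change of the 31 was 0.04, with quartiles of -0.07 and 0.19, against -0.02 with quartiles of -0.16 and 0.15 over all tested genes. Positive values were held by 20 of the 31 (64.5%) and by 46.4% of all tested genes, and changes smaller than 0.1 in size by 16 (51.6%) and 34.0%. An unadjusted p under 0.05 was held by 5 of the 31 (16.1%), against 16.0% of all tested genes. The median implied SE was 0.16 for members and 0.18 for all tested genes.

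**Figure D2:**
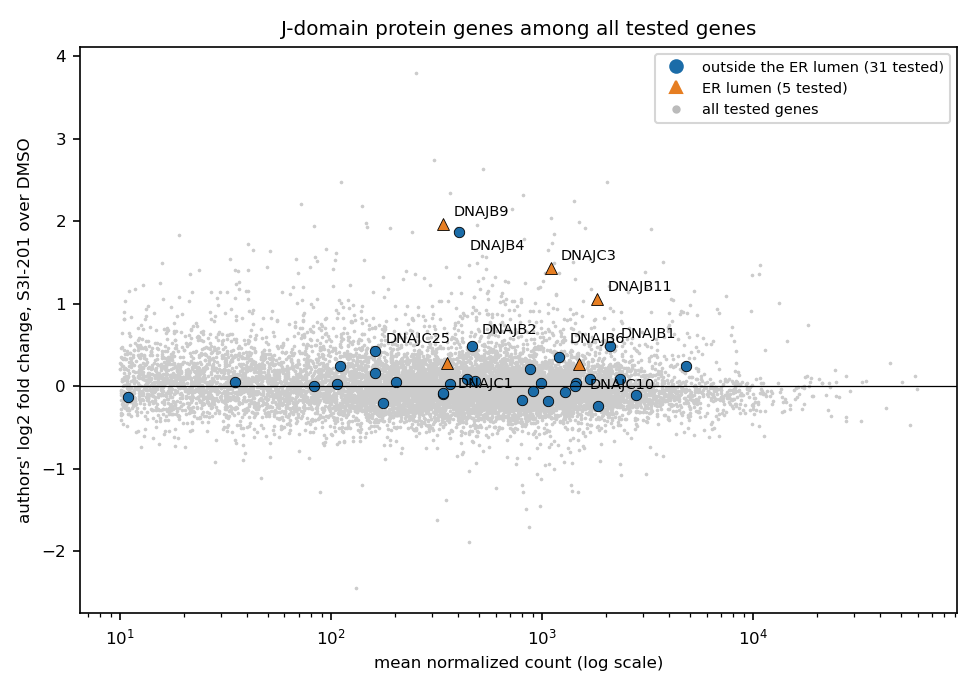
Log2 fold change against mean normalized count (log scale) for all 11912 tested genes in grey, the 31 tested members as circles and the 5 ER-lumen J proteins as triangles. Named circles are members with an unadjusted p under 0.05, and apart from DNAJB4 the members stay between -0.24 and 0.49.

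Levels of the members spanned a wide range. Per kb of exon, DNAJA1 had a mean level of 1750 normalized counts, DNAJC8 of 966, DNAJB1 of 568, DNAJC11 of 362 and DNAJC9 of 361. DNAJA1 alone made up 26.6% of the summed level per kb of all members. DNAJB4 had a pooled level of 106 per kb, which describes neither group: the implied levels were 167 per kb with S3I-201 and 45.7 with DMSO, at places 12 and 20 in the order of the implied levels of each group. The least abundant tested member was DNAJC28 at 4.37 per kb, and DNAJC22 was the lowest of those detected at 0.181. The lengths are those of all annotated exons joined, which can exceed the transcripts present, and without values per library no spread can be given, so neighbours in this order cannot be told apart.

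**Figure D3:**
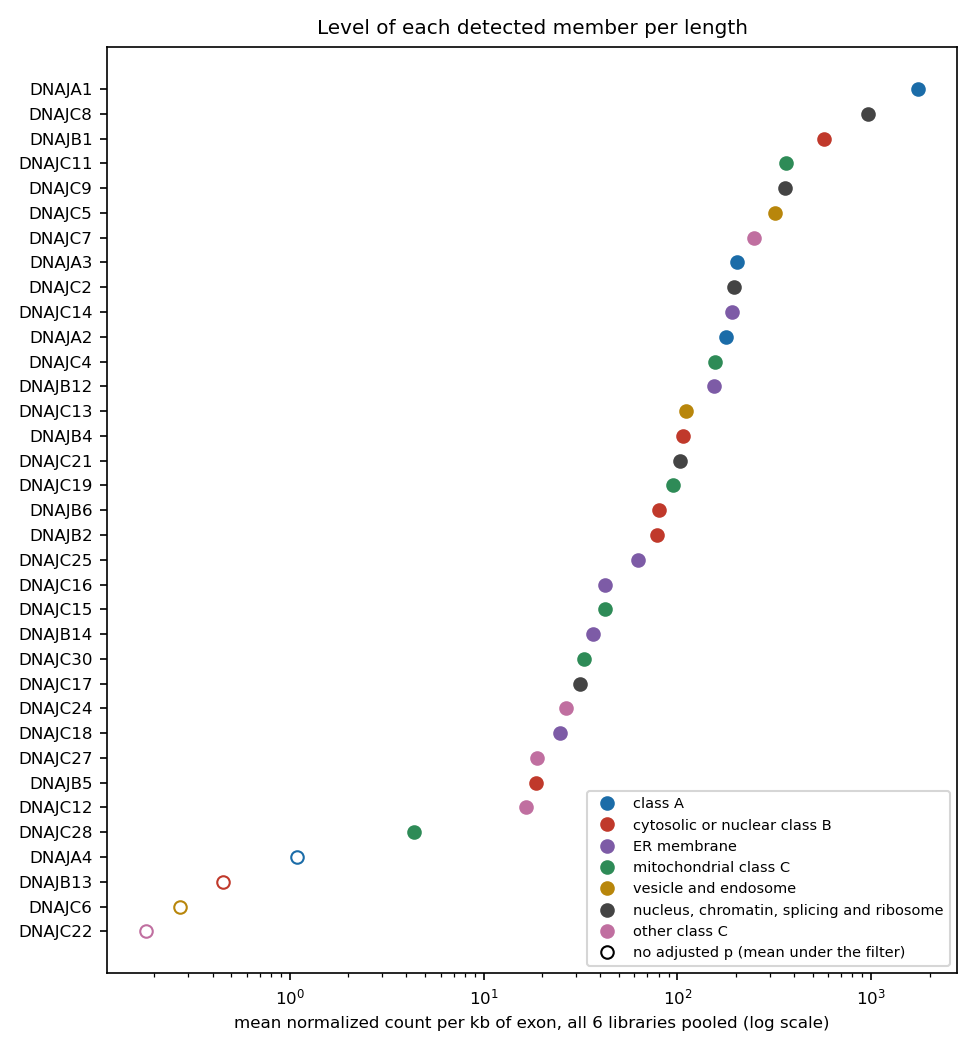
Mean normalized count per kb of exon over all 6 libraries (log scale) for the 35 detected members, coloured by role. DNAJA1 at 1750 leads, and the 4 open points, from DNAJA4 at 1.09 down to DNAJC22 at 0.181, are the members without an adjusted p.

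The 5 J proteins of the ER lumen, left out by the rule, had 3 higher and 2 not past, beside 4.45% higher among all tested genes. Their median was 1.05 where the 31 members had 0.04. The 95% interval of DNAJB4 on the log2 scale, 1.48 to 2.26, overlapped that of DNAJB9, 1.56 to 2.36, and the upper ends of DNAJB1 at 0.79, DNAJB2 at 0.81 and DNAJC25 at 0.78 reached into that of DNAJB11, 0.73 to 1.37. The intervals of the other 27 tested members ended below it. DNAJC1 and DNAJC10, the ER-lumen genes that did not pass, had 0.28 (adjusted p = 0.426) and 0.28 (adjusted p = 0.336) in the authors' deposited table. No test of the difference between these gene groups was run. J-domain proteins with other symbols had 0 of 3 past by the authors' DESeq2 adjusted p. Beside 16.0% of all tested genes, 1 had an unadjusted p under 0.05. That gene was SEC63, of the ER translocation channel, at 0.37 (adjusted p = 0.208), as the authors' deposited table gives it. HSCB, of iron-sulfur cluster assembly, had 0.20 and GAK, the auxilin of most tissues, 0.04 there.

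The HSP70 proteins that J proteins serve had 4 of 9 tested genes higher and 5 not past, with a median of 0.61. Among all tested genes 4.45% were higher. HSPA5, the HSP70 of the ER, had a log2 fold change of 1.35 (implied SE 0.18, DESeq2 adjusted p = 3.39e-12) and HSPA13, a microsome-associated relative, 0.87 (implied SE 0.22, DESeq2 adjusted p = 0.00216) in the authors' deposited table. HSPA9 of mitochondria had 0.44 (implied SE 0.14, DESeq2 adjusted p = 0.0279), while the mitochondrial J proteins DNAJA3 and DNAJC19 had 0.04 and -0.08 in the authors' deposited table. In the cytosol, HSPA1B had 1.04 (implied SE 0.19, DESeq2 adjusted p = 7.38e-06), a value that is uncertain because its copy HSPA1A shares its reads. HSPA1A itself had 0.25 at a mean of 6.09, without a p-value. The constitutive HSPA8 had 0.06 (adjusted p = 0.933) at a mean of 50843 in the authors' deposited table. HSPA1L at 0.70 (adjusted p = 0.107) and HSPA6 at 0.61 (adjusted p = 0.194), were not past the threshold in the authors' deposited table, at means of 16.7 and 20.2.

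Nucleotide exchange factors, which reopen HSP70, had 1 of 12 tested genes higher, beside 4.45% of all tested genes. The other 11 were not past, and the median was -0.02. The higher gene was HYOU1 of the ER, at 1.09 (implied SE 0.18, DESeq2 adjusted p = 9.47e-08) in the authors' deposited table. GRPEL2 of mitochondria had 0.51 (adjusted p = 0.105) and HSPH1 of the cytosol 0.34 (adjusted p = 0.305) in the authors' deposited table, and BAG3, which is strongly heat-inducible, had a mean of only 2.59. Heat shock factors and their other textbook targets had 1 of 13 higher, again beside 4.45%, and 12 not past, with a median of 0.0073. The higher gene was SERPINH1, the collagen chaperone of the ER, at 1.19 (implied SE 0.19, DESeq2 adjusted p = 1.79e-08) in the authors' deposited table. HSF1 itself had -0.02 (adjusted p = 0.970), HSP90AA1 0.13 (adjusted p = 0.712), HSPB1 0.15 (adjusted p = 0.852), HSPD1 -0.09 (adjusted p = 0.845) and HSPE1 -0.24 (adjusted p = 0.582) in the authors' deposited table.

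**Figure D4:**
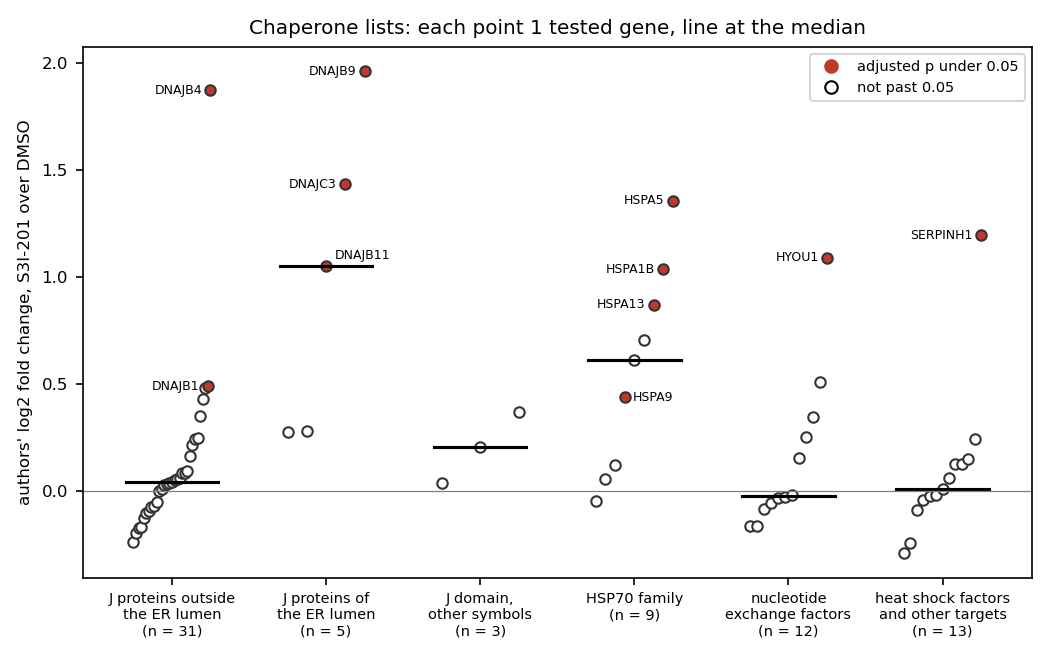
Log2 fold change (S3I-201 over DMSO) of each tested gene in the J proteins outside the ER lumen, those of the ER lumen, J-domain proteins with other symbols, the HSP70 family, nucleotide exchange factors, and heat shock factors with other targets. Filled points passed an adjusted p of 0.05 and lines mark medians, at 0.04, 1.05, 0.20, 0.61, -0.02 and 0.0073 from left to right.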

How the data were processed

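REH cells were compared after S3I-201 or DMSO, with 3 libraries each. The TruSeq RNA v2 kit, which the labels' protocols name, does not mark the strand. The submitters' processing notes name hg38, bcl2fastq 2.19, Trimmomatic, Bowtie2, Picard, featureCounts and DESeq2, without roles. For the annotation and the model nothing is given in the sources used here.

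Each deposited mean normalized count is a signal, taken here as the authors' average over all libraries of size-factor normalized counts. The log2 fold change, the p-value and the adjusted p are the authors' own, as the file headers name them. That DESeq2 computed them was read from the tools in the submitters' processing notes, since the headers name no tool. The adjusted p covers 11912 genes with means of at least 10.0. The planned count test could not be used with these pooled values, and the adjusted p of the authors was used instead. Implied group means assume that the 2 group means have the deposited fold change and average to the deposited mean.

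Reads of members with a mean under 2 were solved from 6 repeated steps, which explained all 2067 genes with a mean under 0.6 within 1e-08. Steps belong to a side of the fold change, not to a named library, and the floor of 3 counts covers counting error only. Exons, lengths and 50-base words came from GENCODE 29 (GRCh38), in which all 38 members were found, and promoters from RefSeq (GRCh38.p14), with 35 of 38 matched. Python 3.11.15, pandas 2.3.3 and scipy 1.17.1 were used. The adjustment of p-values, the implied SE and the trend removal were tested on simulated data without shrinkage. The other procedures were not tested on simulated data.

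All tested members are named, and of the comparison lists all genes that passed. Some genes of the lists are not reported here. The members, lists and motifs were chosen with earlier results of these data known. Alternatives were thresholds of 0.01 and 0.1, a minimum change of 0.5, and adjustment over every one of the 16974 genes that have a p-value or over genes with a mean of at least 100. Further alternatives were subtraction of the median fold change within each of 20 bins of abundance, and symbols with a letter after the number.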

Additional observations from a re-analysis of the deposited data

How the results depend on the processing

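DNAJB4 and DNAJB1 were the 2 higher members as reported by the authors' DESeq2 adjusted p, and 0 were lower under every alternative run. For adjustment over other gene sets, the adjusted p was recomputed here from the authors' p-values. After removal of the abundance trend it was recomputed from the shifted fold changes and the implied SE. The number of higher members fell to 1, DNAJB4 alone, at a threshold of 0.01 (3.05% of all tested genes were higher at it) and to 1 with a minimum log2 change of 0.5 (4.17%). It was 3 at a threshold of 0.1, with DNAJB2 added, where 5.27% of all tested genes were higher. Removal of the abundance trend shifted members by -0.07 to 0.06, kept the 2 calls (DNAJB1 adjusted p = 0.0102, DNAJB2 adjusted p = 0.0530) and turned the sign of 2 members near 0, DNAJA2 to 0.00035 and DNAJC12 to -0.0024. The other 29 members kept their direction and their side of the threshold. Adjustment over every gene that has a p-value kept both for all 31, and adjustment over genes with a mean of at least 100 for the 28 it covers. Counting DNAJC5B, listed at 0, and DNAJC5G, with 7 reads, as members changed no count. No paired analysis was possible because the table pools the libraries, and for the same reason no library could be left out and other normalizations and count filters were not run. Of the 7 members without an adjusted p, 4 had too few reads for one and 3 were at 0, where low depth and absent expression cannot be told apart.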

Other observations

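Rows of the table whose names hold the symbol of a J-domain protein, member or not, but are other transcripts were mostly near 0. DNAJB8-AS1, DNAJC25-GNG10 and the pseudogene DNAJA1P5 were listed at 0. DNAJC27-AS1 had a mean of 6.33, DNAJC9-AS1 of 1.55 and DNAJB5-AS1 of 0.746 in the authors' deposited table. The exception was DNAJC3-AS1, named after its values were seen, which was higher with S3I-201 at a log2 fold change of 0.97 (implied SE 0.23, DESeq2 adjusted p = 0.00128) and a mean of 82.3 in the authors' deposited table. It lies beside the ER-lumen gene DNAJC3, which stood at 1.43, and the libraries carry no strand.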
